A study of Homo sapiens with 3 samples.

Results

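The comparison described here sets HCT116 cells exposed to palbociclib against HCT116 cells in which CDK4 was silenced by siRNA, a small interfering RNA, gene by gene. It covers the 12694 genes, of 48162 entries in the deposited count table, whose mean over all 3 libraries of the series was at least 1 CPM, the count of a gene scaled to a library of common size. HCT116 is an established human colon cancer cell line. The groups were 1 µM palbociclib for 24 hours, transfection with CDK4 siRNA for 24 hours, and untreated cells, with 1 library of total RNA sequenced in each. The question posed by the pair is how far the removal of one kinase's mRNA gives the transcriptome that a drug against the kinase activity gives; the study's title ties the drug to p73 and to the death receptor DR5. Cells mock-transfected, transfected with a control siRNA, or given the drug's vehicle were not analysed here, so drug and solvent, or silencing and transfection, cannot be told apart. There were no replicates: every ratio below is palbociclib over CDK4 siRNA unless said otherwise, its bracketed 95% interval covers the counting of reads only, and no p-value was computed.

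CDK4 and its close relative CDK6 bind D-type cyclins and phosphorylate the retinoblastoma protein RB and its relatives p107 and p130. Phosphorylation frees the E2F transcription factors, which drive the genes of S-phase entry, and lifts repression of mitotic genes by the DREAM complex through promoter elements called CDE and CHR. Palbociclib occupies the ATP pocket of both kinases and leaves the proteins in place, where they can still bind cyclins and CDK inhibitors. An siRNA lowers the mRNA of one gene, and the protein declines only as fast as it turns over.

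The palbociclib, CDK4 siRNA and untreated libraries held 18020870, 18349355 and 20313597 counted reads. Mitochondrially encoded transcripts took 6.53% of the palbociclib reads, 3.85% of the siRNA reads and 4.02% of the untreated reads. The 10 colon epithelial markers summed to 4572 CPM with palbociclib, 5027 with the siRNA and 5177 in untreated cells. Among them KRT8 stood at 1810, 3076 and 3258 CPM in the palbociclib, siRNA and untreated libraries. In the same order KRT19 stood at 2132, 1331 and 1270 CPM and EPCAM at 332, 259 and 263 CPM. CDX1 had no read in any library, and VIL1, LGALS4 and KRT20 had at most 22. The blood markers summed to 3.76, 0.812 and 0.429 CPM, most of it CD14 with palbociclib, and PTPRC and CD3E had no read. The fibroblast markers summed to 8.99, 22.3 and 15 CPM, nearly all COL1A1, and the endothelial ones to 1.36, 1.02 and 0.476 CPM.

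The siRNA target was at its lowest in the siRNA library. CDK4, the cyclin D-dependent kinase, had 1426 reads with palbociclib, 1059 with the siRNA and 2689 in untreated cells, or 87.8, 53.8 and 128 CPM. The palbociclib library held 0.686 times the untreated CDK4 level (0.643 to 0.732), and the siRNA library held 0.42 times that level (0.391 to 0.451), in the direction its label calls for. The ratio of palbociclib over siRNA was 1.63 (1.51 to 1.77). CDK6, the second target of the drug, stood at 189 CPM with palbociclib, 86.9 with the siRNA and 112 in untreated cells, a ratio of 2.17 (2.05 to 2.31), so it was on opposite sides of untreated in the treated libraries. Scaled for gene length, CDK4 had 38.1, 27.8 and 63.8 FPKM and CDK6 14.7, 8.03 and 9.93 FPKM in the palbociclib, siRNA and untreated libraries: CDK4 remained the more abundant kinase mRNA in the siRNA library.

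A size rule asked for a log2 ratio at or beyond 1 or −1 and a counting interval off 1. By it, 1111 genes (8.75% of those compared) were higher with palbociclib and 1753 (13.8%) were lower. The counts of higher and lower genes in the lists below are to be read against these shares. The split depended on scaling: with library totals in place of TMM factors, which set libraries level on the bulk of their genes, 655 genes were higher and 2646 lower, so the share of calls that were higher was 19.8% in place of 38.8%. The deposited FPKM values, which are also relative to library totals, gave 645 higher and 2488 lower (20.6% higher) with a pseudocount of 0.1. The 10 most abundant entries took 9.88% of the palbociclib, 6.23% of the siRNA and 6.41% of the untreated reads. Leaving out mitochondrial and structural RNA entries before scaling gave 1119 higher and 1758 lower. The median log2 ratio over all genes was −0.08 with TMM and −0.33 with library totals, and list medians are to be read against that shift. At 4-fold, 196 genes were higher and 254 lower, and at 16-fold 24 were higher and 5 lower. An interval above 1 was found for 4537 genes (35.7%) and one below 1 for 5256 (41.4%), and 6929 of these were under 2-fold. The robust SD of the log2 ratios was 0.80 between palbociclib and siRNA. Against the shared untreated library it was 0.81 for palbociclib and 0.22 for the siRNA.

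**Figure D1:**
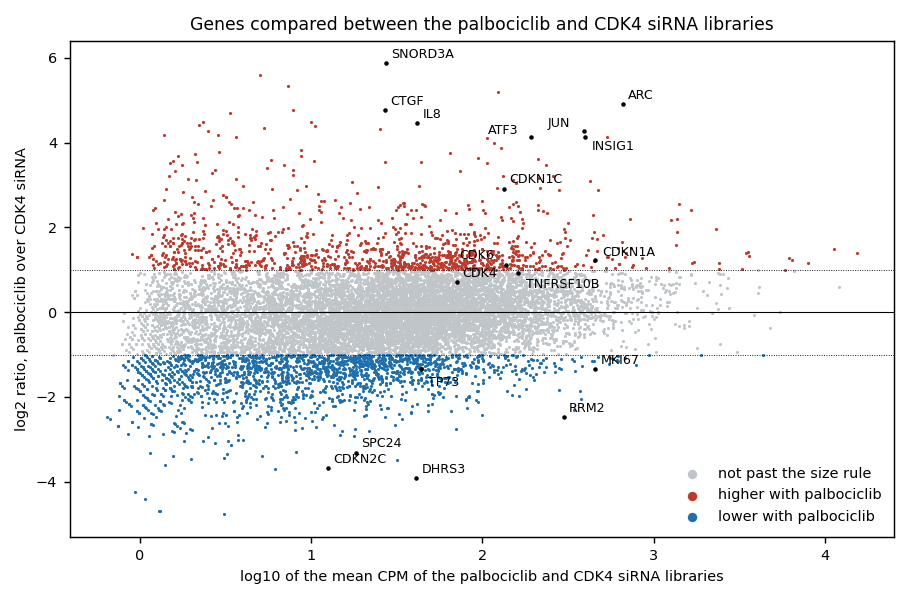
Log2 ratio of palbociclib over CDK4 siRNA (vertical) against the log10 of the mean CPM of both libraries (horizontal), 1 point per gene compared, coloured by the size rule, with 2-fold marked by dotted lines. The 1111 higher genes reach further from 0 than the 1753 lower ones, and CDK4 lies inside the dotted lines.

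Lower calls were concentrated among weakly expressed genes. Between 1 and 2 CPM, 15.3% of genes were higher and 26.7% lower with palbociclib, against 10.4% higher and 5.2% lower above 300 CPM, and the median log2 ratio ran from −0.28 in the first bin to 0.22 in the last. Gene length differed little, with a median of 3268 bases for the higher genes, 3232 for the lower and 3360 for all. Of 148 genes that RefSeq types as pseudogenes, 25% were higher and 8.78% lower, against 7.98% and 13.7% of the 11560 protein-coding genes. A pseudogene can share reads with its parent gene, and how such reads were counted is not given in the sources used here. The genes nearest to the limits of the rule were EBF4 at a log2 ratio of 1.0001 and DLGAP4 at 0.9998 on the higher side, and ANP32E at −1.0004 and NUDT8 at −0.9999 on the lower.

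Among the partners of CDK4, the D cyclins and pocket proteins differed by less than 2-fold. CCND1, the main D cyclin of these cells, had 735 CPM with palbociclib, 651 with the siRNA and 626 in untreated cells, a ratio of 1.13 (1.1 to 1.16). CCND3 stood at 0.699 (0.646 to 0.756), and CCND2 had no read in any library. The pocket protein genes were all lower with palbociclib, RB1 at 0.686 (0.62 to 0.759), RBL1 (p107) at 0.548 (0.456 to 0.658) and RBL2 (p130) at 0.657 (0.532 to 0.809). In the list of D cyclins, kinases, pocket proteins and DREAM subunits, 1 of 10 compared genes (CDK6) was past the size rule, and the list's median was −0.33.

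The genes of the CDK inhibitor proteins were far apart, in both directions. CDKN1C (p57), which binds cyclin-CDK complexes, had 237 CPM with palbociclib, 31.4 with the siRNA and 31.6 in untreated cells, a ratio of 7.56 (6.94 to 8.24). CDKN2B (p15), an inhibitor that binds CDK4 and CDK6 directly, stood at 32.5, 5.94 and 8.95 CPM, a ratio of 5.48 (4.47 to 6.75). CDKN2C (p18), of the same INK4 family, went the other way, with 28 reads with palbociclib, 460 with the siRNA and 433 untreated, a ratio of 0.0739 (0.0485 to 0.108). CDKN1A (p21), a p53 target, had 637 CPM with palbociclib, 271 with the siRNA and 385 in untreated cells, so untreated lay between and the ratio was 2.35 (2.27 to 2.43). CDKN2A stood at 1.56 (1.46 to 1.67), CDKN1B (p27) at 0.803 (0.723 to 0.89), and CDKN2D (p19) at 0.84 (0.687 to 1.03), whose interval includes 1. In all, 3 of the 7 were higher and 1 was lower. After the siRNA, CDKN1A stood at 0.704 times untreated (0.68 to 0.729) and CDKN2B at 0.663 times (0.522 to 0.84).

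**Figure D2:**
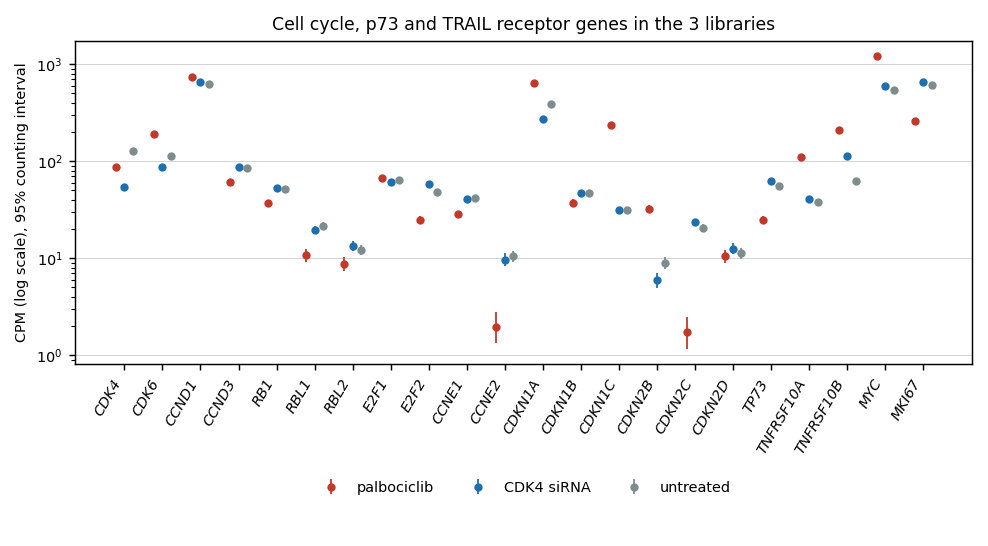
CPM (log scale) with exact 95% Poisson counting intervals in the palbociclib, CDK4 siRNA and untreated libraries, left to right within each gene, 1 library per point. The siRNA point lies beside the untreated one for most genes; CDK4 is lowest after the siRNA, and CDKN1C, CDKN2B, MYC and both TRAIL receptor genes are highest with palbociclib.

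The E2F and DP genes went both ways, with 2 of 10 higher and 3 lower. E2F1, an activator, stood at 1.11 (1.02 to 1.2), whereas E2F2, another activator, had 24.9 CPM with palbociclib, 58.1 with the siRNA and 47.8 untreated, a ratio of 0.43 (0.383 to 0.482). The atypical repressors E2F7 and E2F8 were lower with palbociclib at 0.388 (0.331 to 0.453) and 0.317 (0.256 to 0.389), and the repressors E2F5 and E2F6 were higher at 2.15 (1.7 to 2.74) and 2.33 (2.08 to 2.6). Of the 30 genes of G1/S entry and E2F control, none was higher and 14 were lower by the size rule, 27 had a counting interval below 1, and the list's median was −0.93 on the log2 scale. RRM2, the regulated subunit of ribonucleotide reductase, had 90.7 CPM with palbociclib, 506 with the siRNA and 496 untreated, a ratio of 0.179 (0.17 to 0.189). CCNE2, an E-type cyclin, had 32, 191 and 221 reads in the palbociclib, siRNA and untreated libraries, a ratio of 0.203 (0.135 to 0.297), while its relative CCNE1 stood at 0.693 (0.616 to 0.778). The cyclin CCNA2 was at 0.309 (0.284 to 0.335). UNG, the uracil glycosylase, was the one member with an interval above 1, at 1.3 (1.22 to 1.38). The list's median log2 ratio to untreated was −1.05 for palbociclib and −0.05 for the siRNA. In a culture, fewer cells in S phase and less of these mRNAs per cell cannot be told apart.

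Replication factors followed the same direction: 16 of 42 were lower, none was higher, and the list's median log2 ratio was −0.79. POLA2, the B subunit of DNA polymerase alpha, had 6.22 CPM with palbociclib, 34.3 with the siRNA and 34.2 untreated, a ratio of 0.181 (0.146 to 0.224). POLE2 of polymerase epsilon stood at 0.253 (0.191 to 0.331), the primase PRIM1 at 0.297 (0.247 to 0.356) and the single-strand binding subunit RPA3 at 0.316 (0.26 to 0.383). The helicase subunits were uneven, from MCM4 at 0.375 (0.358 to 0.393) to MCM5 at 1.03 (0.996 to 1.07), and the origin subunit ORC6 was higher with palbociclib at 1.33 (1.2 to 1.48), under 2-fold. An E2F motif (TTTCCCGC, TTTGGCGC, TTTCGCGC or TTTGCCGC on either strand) occurs in the RefSeq promoter windows, 300 bases around the annotated start, of 14 of 36 replication genes (38.9%) and 11 of 26 G1/S genes (42.3%). It occurs in 5.42% of the 9645 compared genes with a window and 3.33% of all 27305 RefSeq windows. Both lists hold textbook E2F targets, so their share is no finding on the drug. Within the replication list, the median log2 ratio was −1.02 for the 14 genes with the motif and −0.64 for the other 22. Within the G1/S list it was −0.94 for the 11 genes with the motif and −0.87 for the other 15. The POLA2 window is shown as the member of that list with the lowest ratio, at chr11:65261712-65262011 (GRCh38.p14, plus strand), with its E2F motif, which begins 53 bases before the start, in capitals.
POLA2: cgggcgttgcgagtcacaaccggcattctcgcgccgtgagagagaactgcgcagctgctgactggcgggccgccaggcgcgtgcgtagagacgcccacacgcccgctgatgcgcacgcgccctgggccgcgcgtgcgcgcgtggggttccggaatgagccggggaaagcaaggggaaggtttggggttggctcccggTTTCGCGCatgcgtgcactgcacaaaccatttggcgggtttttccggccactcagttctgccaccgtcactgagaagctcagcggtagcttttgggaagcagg

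Mitotic genes were lower with palbociclib almost throughout. All 42 kinetochore and spindle genes had a counting interval below 1, 31 were past the size rule, and their list's median was −1.29 on the log2 scale. SPC24 and SPC25, which together anchor the NDC80 complex to the kinetochore, had 3.26 and 5.36 CPM with palbociclib, 33.2 and 38.1 with the siRNA and 31.7 and 34.4 in untreated cells. Their ratios were 0.0982 (0.0728 to 0.13) and 0.141 (0.111 to 0.176). The cytokinesis kinesin KIF20A stood at 0.148 (0.131 to 0.168) and HJURP, the chaperone of the centromeric histone, at 0.222 (0.196 to 0.251), while CENPN at 0.892 (0.809 to 0.983) and PRC1 at 0.851 (0.8 to 0.905) were closest to 1. Of 27 mitotic kinases, cyclins and ubiquitin ligase subunits, 17 were lower, none was higher, and the median stood at −1.17. NEK2, AURKA and AURKB, kinases of the centrosome, spindle and chromosomal passenger complex, stood at 0.242 (0.208 to 0.281), 0.25 (0.227 to 0.274) and 0.255 (0.23 to 0.282). MASTL, the kinase that restrains a mitotic phosphatase, was higher with palbociclib at 1.64 (1.43 to 1.88). MKI67, the gene of the proliferation marker Ki-67, had 257 CPM with palbociclib, 654 with the siRNA and 612 in untreated cells, a ratio of 0.392 (0.379 to 0.406). The median log2 ratio of the kinetochore list to untreated was −1.25 for palbociclib and −0.04 for the siRNA, and that of the mitotic kinase list −1.27 for palbociclib and −0.04 for the siRNA.

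The CHR element (TTTGAA, either strand) occurs in 28 of 37 kinetochore and spindle windows (75.7%) and 12 of 21 windows of the mitotic kinase list (57.1%), but in 9.3% of compared genes and 15.4% of all windows. CCAAT, on either strand, occurs in 70.3% and 76.2% of the windows of these lists and in 36.6% of compared genes. Genes with CHR were no lower than the rest in the kinetochore list, with medians of −1.29 for 28 genes with it and −1.30 for 9 without, or in the mitotic kinase list, with −1.17 for 12 genes with it and −1.43 for 9 without. The SPC25 window is shown because it holds both elements in pairs, at chr2:168890381-168890680 (GRCh38.p14, minus strand). Capitals mark the CHR elements, which begin 247 and 3 bases before the start, and the CCAAT boxes at 88 and 56 bases before it.
SPC25: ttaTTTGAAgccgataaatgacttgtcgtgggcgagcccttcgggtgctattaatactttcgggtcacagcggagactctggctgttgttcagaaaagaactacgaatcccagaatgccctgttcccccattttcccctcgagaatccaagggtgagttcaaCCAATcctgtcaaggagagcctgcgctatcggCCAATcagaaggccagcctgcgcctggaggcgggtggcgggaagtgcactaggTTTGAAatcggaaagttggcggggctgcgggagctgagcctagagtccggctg

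Lists of genome maintenance genes differed from each other. Of 26 genes of homologous recombination and the Fanconi pathway, 14 were lower, none was higher, and the median stood at −1.01. RAD51AP1, which stimulates strand invasion, stood at 0.247 (0.201 to 0.303), FANCA at 0.304 (0.271 to 0.341), BRCA1 at 0.317 (0.278 to 0.361) and its partner helicase BRIP1 at 0.325 (0.273 to 0.385). Of 16 genes of mismatch and base excision repair, 7 were lower, led by the glycosylase NEIL3 at 0.247 (0.195 to 0.31) and with MSH3 at 0.324 (0.156 to 0.622). In cohesin and condensin, 4 of 18 were lower (ESCO2, SMC4, NCAPD2 and NCAPH, at 0.326 to 0.422), and the cohesin release factor WAPAL was higher at 1.7 (1.6 to 1.79). The DNA methylation genes had a median of −0.02, which is 0.03 with DESeq2 size factors; DNMT3B stood at 0.285 (0.252 to 0.32) and UHRF1 at 0.366 (0.347 to 0.386). Of 19 replication-dependent histone genes, 8 reached the expression limit. HIST1H4C and HIST2H2BE did so only through the palbociclib library, so no count is read from these. HIST1H1C had 199, 98 and 153 reads and HIST1H2BK 267, 180 and 361 reads in the palbociclib, siRNA and untreated libraries. Most such mRNAs carry no poly(A) tail in cycling cells, and the selection of RNA for these libraries is not given in the sources used here.

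The study's title names p73 and DR5. TP73, which encodes the p53 relative p73, had 400 reads with palbociclib, 1243 with the siRNA and 1157 in untreated cells. In CPM these were 24.6, 63.1 and 55.1, and the ratio was 0.39 (0.348 to 0.437); after the siRNA TP73 stood at 1.15 times untreated (1.06 to 1.24). The p73 protein and its phosphorylation were not measured by these libraries. TP73 is a known E2F1 target, and its RefSeq window, chr1:3652266-3652565 (GRCh38.p14, plus strand), holds an E2F motif (capitals) that begins 235 bases before the start, in reverse orientation.
TP73: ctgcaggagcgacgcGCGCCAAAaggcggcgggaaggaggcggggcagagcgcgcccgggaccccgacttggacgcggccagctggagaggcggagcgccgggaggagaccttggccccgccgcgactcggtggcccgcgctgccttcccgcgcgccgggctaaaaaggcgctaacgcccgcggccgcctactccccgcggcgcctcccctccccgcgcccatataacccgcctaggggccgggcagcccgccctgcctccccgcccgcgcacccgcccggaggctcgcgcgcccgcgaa

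TNFRSF10B, the gene of death receptor DR5, had 3440 reads with palbociclib, 2210 with the siRNA and 1316 in untreated cells, or 212, 112 and 62.7 CPM. Both treated libraries were above the untreated one they share, palbociclib at 3.38 times (3.17 to 3.61) and the siRNA at 1.79 times (1.67 to 1.92), and the ratio of palbociclib over siRNA was 1.89 (1.79 to 1.99), short of 2-fold. Other TRAIL receptors were near untreated after the siRNA. TNFRSF10A (DR4) had 110, 40.8 and 38.1 CPM in the palbociclib, siRNA and untreated libraries, a ratio of 2.7 (2.48 to 2.94), and the decoy receptor TNFRSF10D had 275, 48.3 and 49.1 CPM, a ratio of 5.7 (5.31 to 6.12). In the TRAIL and death receptor list 4 of 22 genes were higher and 1 lower; its median of 0.09 turns to −0.17 with library totals. Also past the size rule were the inhibitor of apoptosis BIRC2 at 2.19 (2 to 2.41), its relative BIRC3, and the executioner caspase CASP6, lower at 0.399 (0.319 to 0.494). DIABLO and CASP8 stood at 1.49 (1 to 2.23) and 0.746 (0.66 to 0.842). In the BCL2 family 3 of 15 were higher, the BH3-only genes PMAIP1 (NOXA) at 4.77 (4.43 to 5.15), BBC3 (PUMA) at 3.67 (3.4 to 3.96) and HRK at 3.4 (2.35 to 5.01), while BCL2, BAX and BAK1 stood at 0.51 (0.338 to 0.757), 0.651 (0.602 to 0.704) and 0.748 (0.678 to 0.824).

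Targets of p53 went both ways, with 8 of 28 higher and 3 lower, against 8.75% and 13.8% of all genes. Their median log2 ratio was 0.34. GADD45A, a stress-induced regulator of the cell cycle, had 281 CPM with palbociclib, 65.2 with the siRNA and 59.9 untreated, a ratio of 4.32 (4.06 to 4.6). SESN2, an inhibitor of mTORC1 signalling, stood at 2.99 (2.77 to 3.24). Lower members were the translesion polymerase POLH at 0.459 (0.388 to 0.542), FDXR at 0.487 (0.455 to 0.521) and TP53I3 at 0.49 (0.366 to 0.648), and MDM2, the ubiquitin ligase of p53, was at 1.4 (1.33 to 1.49). Among genes of the p53 family and its regulators 1 of 14 was higher, the acetyltransferase EP300 at 2.73 (2.58 to 2.9), and 2 were lower, TP73 and AURKA. Both counts are near the shares over all genes, 8.75% and 13.8%. The median of 0.25 is −0.01 with library totals.

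Genes of the immediate early response, which cells switch on within minutes of growth factor or stress signals, had the highest median of the 47 lists. Of 27 such genes, 21 were higher with palbociclib and none lower, and the median log2 ratio was 2.29. ARC had 20688 reads with palbociclib, 841 with the siRNA and 901 in untreated cells, a ratio of 29.8 (27.9 to 32). JUN, a subunit of the AP-1 factor, had 746, 38.4 and 39.4 CPM in the palbociclib, siRNA and untreated libraries, a ratio of 19.4 (18.1 to 20.9), and its partner FOS had 201, 11.5 and 9.43 CPM, a ratio of 17.4 (15.2 to 20). ATF3, which pairs with JUN, stood at 17.4 (15.8 to 19.3), and JUND at 5.9 (5.76 to 6.05). The list's median log2 ratio to untreated was 2.27 for palbociclib and 0.08 for the siRNA. EGR1, a zinc finger factor of the same response, was above untreated in both treated libraries, at 706, 189 and 117 CPM in the palbociclib, siRNA and untreated libraries. MYC, a growth regulator, had 1214, 592 and 548 CPM, a ratio of 2.05 (2 to 2.1). KLF2 was the one member with an interval below 1, at 0.884 (0.835 to 0.937). The AP-1 motif TGANTCA, on either strand, occurs in 7.78% of the windows of higher genes, 2.98% of lower genes, 4.27% of all compared genes and 7.76% of all RefSeq windows.

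Feedback inhibitors of MAP kinase signalling were partly higher, 6 of 17, with 1 lower. The phosphatase DUSP8 had 270, 31.2 and 28.2 CPM in the palbociclib, siRNA and untreated libraries, a ratio of 8.65 (7.95 to 9.42), and DUSP1 stood at 5.76 (5.04 to 6.61). DUSP6, the ERK phosphatase, was at 0.788 (0.732 to 0.847) and the ETS factor ETV4 at 0.489 (0.438 to 0.545). Of 8 EGF family ligands and receptors 4 were higher, the ligands HBEGF at 4.53 (3.83 to 5.38), AREG at 3.62 (3.31 to 3.97) and TGFA at 2.05 (1.88 to 2.24), and the receptor EGFR at 2.55 (2.39 to 2.72). In the YAP and TEAD list 6 of 17 were higher and 1 lower. CTGF, a matricellular growth regulator, had 847 reads with palbociclib, 36 with the siRNA and 25 untreated, a ratio of 28.5 (20.5 to 41), CYR61 stood at 12.4 (11 to 14.1) and the kinase LATS2 at 5.75 (5.21 to 6.36). CTGF and CYR61 also stand in the immediate early list, so the counts of both lists overlap.

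The TGF-beta and BMP list held 6 higher and 3 lower genes of 16. PMEPA1, a membrane inhibitor of SMAD signalling, had 329, 17 and 18 reads in the palbociclib, siRNA and untreated libraries, a ratio of 23.5 (14.4 to 40.8). At 0.863 CPM with the siRNA and 0.857 CPM untreated, it entered the count of 6 only through the palbociclib library. SKIL, a repressor of SMAD-driven transcription, stood at 3.98 (3.32 to 4.8). The lower members were the BMP targets ID1 at 0.238 (0.217 to 0.26), ID3 at 0.494 (0.439 to 0.555) and SMAD6 at 0.165 (0.0824 to 0.304). In the Wnt list 2 of 15 were higher, against 8.75% of all genes: the secreted inhibitor DKK1 at 2.24 (2.13 to 2.35) and MYC. AXIN2 stood at 1.24 (1.08 to 1.42). Colon epithelial identity genes differed by under 2-fold except CLDN4, a tight junction claudin, at 2.12 (2.03 to 2.21); KRT8 stood at 0.589 (0.58 to 0.597).

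NF-kB genes were higher in part, with 9 higher, 1 lower and a median log2 ratio of 0.88 among the 21 of 27 listed genes that passed the expression limit. That limit is a mean over the 3 libraries, so a gene can pass it through the library in which it is high. CXCL1, counted among the 9, passed it only through palbociclib, at 3.45 CPM, with 0.66 with the siRNA and 0.571 untreated. IL8, the neutrophil chemokine (CXCL8 in RefSeq), had 1297 reads with palbociclib, 70 with the siRNA and 53 in untreated cells, a ratio of 22.5 (17.7 to 29). BIRC3 (cIAP2) had 814, 83 and 103 reads, a ratio of 11.9 (9.49 to 15.1). The subunit RELB stood at 9.25 (8.42 to 10.2) and the inhibitor NFKBIA at 3.38 (3.05 to 3.77), whereas NFKBIZ, with 19, 52 and 33 reads, was lower at 0.443 (0.248 to 0.763). An NF-kB site, searched on either strand in a single strict form that begins with GGG and ends with CC, occurs in 9 of 18 windows (50%). It occurs in 6.52% of compared genes and 5.72% of all windows. Other forms of the site are not counted, and the IL8 window holds no match to this form. The median log2 ratio was 1.37 for the 9 genes with a match and 0.84 for the other 9. The windows of BIRC3 (chr11:102317234-102317533) and IL8 (chr4:73740319-73740618), both plus strand in GRCh38.p14, are shown as the members with the highest ratios in the list. Capitals mark the NF-kB sites of BIRC3, which begin 199 and 135 bases before the start, and the AP-1 motif of IL8, which begins 137 bases before it.
BIRC3: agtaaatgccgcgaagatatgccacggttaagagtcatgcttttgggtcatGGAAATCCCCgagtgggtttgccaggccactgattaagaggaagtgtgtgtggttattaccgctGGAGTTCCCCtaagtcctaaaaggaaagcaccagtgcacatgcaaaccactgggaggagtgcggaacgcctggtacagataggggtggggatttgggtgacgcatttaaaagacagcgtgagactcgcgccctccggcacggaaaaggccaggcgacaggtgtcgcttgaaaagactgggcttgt
IL8: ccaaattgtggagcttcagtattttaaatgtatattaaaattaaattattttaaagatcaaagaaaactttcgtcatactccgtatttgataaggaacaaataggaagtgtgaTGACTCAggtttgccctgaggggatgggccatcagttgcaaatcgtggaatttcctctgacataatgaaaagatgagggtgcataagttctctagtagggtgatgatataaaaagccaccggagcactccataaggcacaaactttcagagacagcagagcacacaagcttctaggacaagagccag

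Interferon-stimulated genes went the opposite way, with 9 of 25 lower, none higher, and a list median of −0.76. The ligase HERC6 had 28 reads with palbociclib, 183 with the siRNA and 149 untreated, a ratio of 0.186 (0.12 to 0.277). IFI35 stood at 0.222 (0.158 to 0.304), PARP9 at 0.237 (0.159 to 0.344) and USP18, which removes ISG15 from proteins, at 0.265 (0.188 to 0.367). STAT2, a subunit of the factor that drives these genes, had 201, 403 and 208 reads in the palbociclib, siRNA and untreated libraries, and was highest after the siRNA. These reads are not scaled. The library size after TMM scaling was 16234924 with palbociclib and 21002183 untreated, so the scaled palbociclib value was also above untreated. ISG20 and TRIM25 had an interval above 1. An ISRE (GAAA, any 2 bases, GAAA, on either strand) occurs in 11 of 19 windows of the list (57.9%) and in 2.55% of compared genes. Its bearers had a median of −0.76 and the other 8 one of −1.08. The antigen presentation list had 1 lower gene of 15, against 13.8% of all genes. It was NLRC5, the transactivator of MHC class I genes, at 0.172 (0.107 to 0.265). HLA-B and HLA-C stood at 1.29 (1.21 to 1.37) and 1.19 (1.15 to 1.23), and the list's median of −0.01 is 0.05 with DESeq2 size factors. Of 14 checkpoint and natural killer ligands 3 were higher and 2 lower, against 8.75% and 13.8% of all genes. The lower count is close to its share over all genes. Higher were PVR at 2.55 (2.41 to 2.7), ULBP1 at 2.77 (2.24 to 3.46) and RAET1L with 35 and 13 reads in the palbociclib and siRNA libraries. Lower were CD47 at 0.42 (0.361 to 0.487) and RAET1E at 0.378 (0.213 to 0.641). RAET1L, at 0.66 CPM with the siRNA and 0.762 CPM untreated, passed the expression limit only through the palbociclib library.

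**Figure D3:**
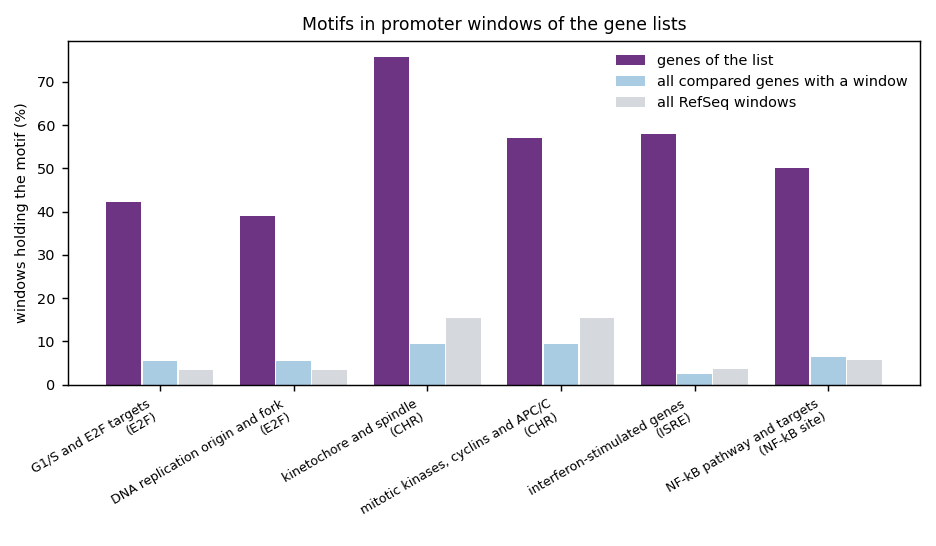
Percent of RefSeq promoter windows (300 bases) that hold the motif named under each gene list, for the genes of the list, all compared genes with a window and all RefSeq windows. The share is several times that of all compared genes in each list, from 38.9% for E2F among replication genes to 75.7% for CHR among kinetochore genes.

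Sterol genes had the second highest median of the lists. Of 27 genes of cholesterol synthesis and SREBP control, 17 were higher with palbociclib and 1 lower, with a median log2 ratio of 1.71. INSIG1, which holds the SREBP escort in the endoplasmic reticulum, had 750 CPM with palbociclib, 42.9 with the siRNA and 67.1 in untreated cells, a ratio of 17.5 (16.3 to 18.8); the siRNA library was at 0.639 times untreated (0.586 to 0.696). The enzymes HMGCS1 and MSMO1 stood at 9.27 (8.68 to 9.92) and 8.97 (8.34 to 9.65). TM7SF2, a sterol reductase, was the lower member at 0.481 (0.405 to 0.57). The list's median ratio to untreated on the log2 scale was 1.61 for palbociclib and −0.14 for the siRNA. SREBF2, the gene of the factor itself, stood at 3.38 (3.26 to 3.51) and SREBF1 at 1.52 (1.47 to 1.57). The sterol element SRE-1, searched in the exact form shown in capitals in the SREBF2 window and on either strand, occurs in 5 windows among compared genes and 0.0476% of all windows. SREBF2 is the member of the list that holds it, at chr22:41832855-41833154 (GRCh38.p14, plus strand), 134 bases before the start.
SREBF2: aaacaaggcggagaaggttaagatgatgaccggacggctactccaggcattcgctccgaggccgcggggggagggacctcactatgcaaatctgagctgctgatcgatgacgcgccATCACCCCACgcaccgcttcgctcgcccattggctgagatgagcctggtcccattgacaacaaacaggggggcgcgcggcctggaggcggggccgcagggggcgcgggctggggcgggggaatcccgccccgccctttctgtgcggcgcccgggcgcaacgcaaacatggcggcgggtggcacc

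Fatty acid genes had 6 of 15 higher and none lower. LPIN1, a phosphatidate phosphatase, had 121 CPM with palbociclib, 8.83 with the siRNA and 10.5 untreated, a ratio of 13.7 (11.7 to 16.1). The desaturase SCD stood at 4.54 (4.43 to 4.64) and the synthase FASN at 2.33 (2.31 to 2.35), while the carboxylase ACACA at 1.28 (1.22 to 1.35) was near 1. Of 34 lysosomal genes 1 was lower and 3 were higher, a share close to the 8.75% of all genes: the cholesterol exporter NPC1 at 3.52 (3.26 to 3.81), the channel MCOLN1 at 2.47 (2.16 to 2.83) and ATP6V1H at 2.21 (1.98 to 2.47); the list's median of 0.08 is −0.17 with library totals. Autophagy genes were higher in 7 of 24 and lower in none, with 20 intervals above 1. MAP1LC3B and GABARAPL1, which coat autophagosomes, stood at 4.61 (4.33 to 4.92) and 4.55 (4.08 to 5.1), and the receptors OPTN and SQSTM1 at 3.74 (3.25 to 4.31) and 2.86 (2.78 to 2.95).

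Lists of stress genes differed in how many members were higher. Of 23 ATF4 targets, the genes of the integrated stress response, 13 were higher and 1 lower, with a median of 1.11. PPP1R15A (GADD34), which reverses the block on translation, had 384 CPM with palbociclib, 50.7 with the siRNA and 43.3 untreated, a ratio of 7.59 (7.09 to 8.12). The cystine carrier SLC7A11 stood at 6.06 (5.63 to 6.53), STC2 at 5.79 (5.45 to 6.16) and ATF5 at 0.312 (0.259 to 0.375). DDIT3 (CHOP), a known activator of TNFRSF10B, had 157, 92 and 43 reads in the palbociclib, siRNA and untreated libraries, so both treated libraries were above untreated, and the ratio was 2.07 (1.59 to 2.71). In the unfolded protein response 7 of 23 were higher, led by the chaperone DNAJB9 at 5.34 (4.56 to 6.27) and HERPUD1 at 3.59 (3.3 to 3.92), with the sensors EIF2AK3 and ERN1 at 3.23 (2.73 to 3.83) and 3.08 (2.62 to 3.65); CRELD2 was lower at 0.268 (0.232 to 0.308), and HSP90B1 stood at 0.941 (0.92 to 0.962). Heat shock genes held 3 higher and 2 lower of 18, against 8.75% and 13.8% of all genes. Their median of 0.20 is −0.06 with library totals. HSF1 stood at 2.04 (1.96 to 2.12) and HSPB1 at 0.421 (0.41 to 0.432). Among 21 NRF2 targets, which protect from oxidants, 9 were higher and 1 lower. The heme oxygenase HMOX1 had 766, 89.1 and 63.5 CPM in the palbociclib, siRNA and untreated libraries, a ratio of 8.6 (8.18 to 9.04), and OSGIN1 stood at 11 (10.2 to 11.9), while NQO1 was at 1.04 (1.01 to 1.08).

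**Figure D4:**
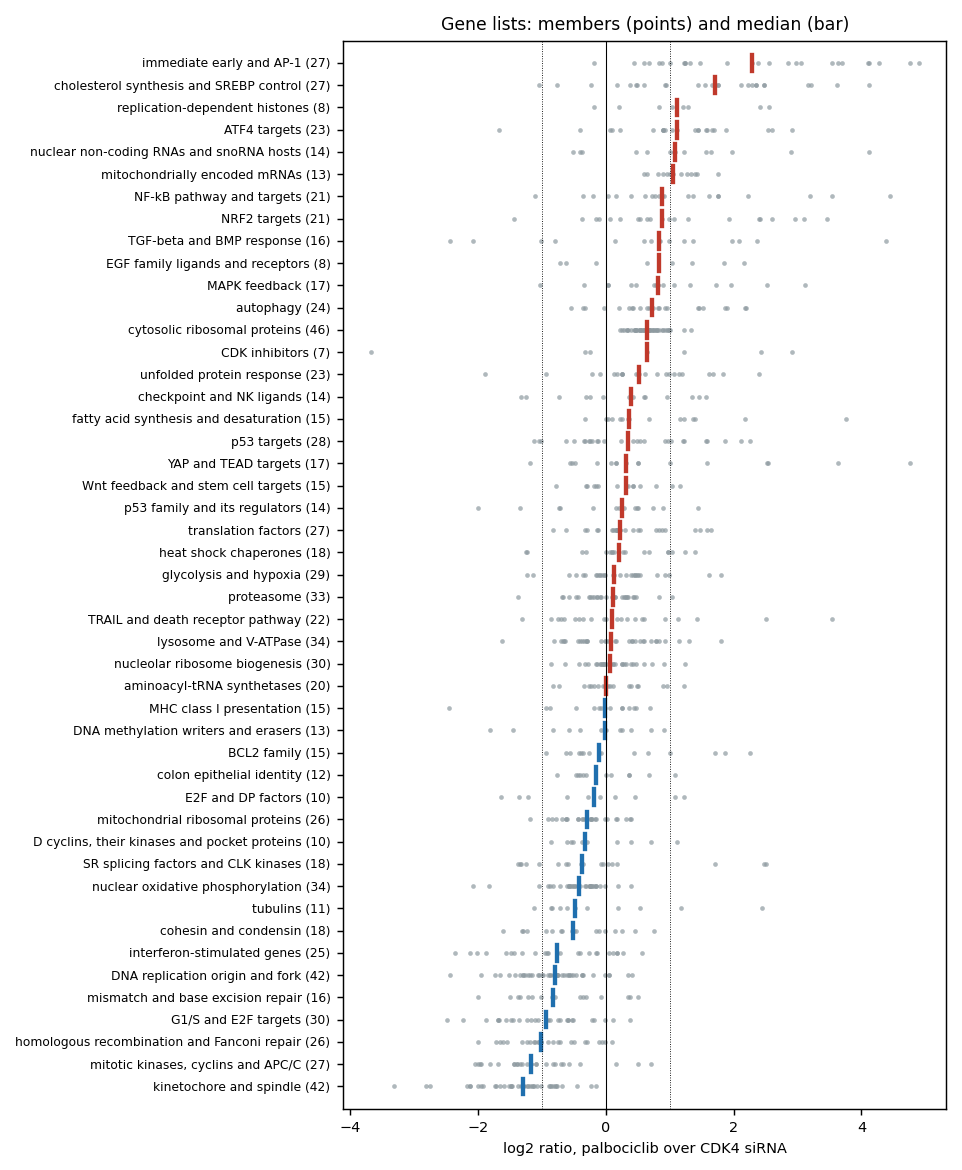
Log2 ratio of palbociclib over CDK4 siRNA for each compared member (points) of each gene list (number of members in brackets) and the median of the list (bar), with 2-fold marked by dotted lines. Medians run from −1.29 for kinetochore and spindle genes to 2.29 for immediate early genes; the medians of 11 lists, all between −0.02 and 0.25, change sign with the scaling.

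Transcripts of the mitochondrial and nuclear genomes, which both supply the respiratory chain, went apart. All 13 mitochondrially encoded mRNAs had an interval above 1, with 8 past 2-fold and a median log2 ratio of 1.05. MT-ND2, a complex I subunit, had 83456 reads with palbociclib, 37905 with the siRNA and 50287 untreated, a ratio of 2.67 (2.64 to 2.7). Of 34 nuclear genes of oxidative phosphorylation 29 had an interval below 1 and 3 passed 2-fold, ATP5G1 at 0.238 (0.216 to 0.262), NDUFB3 at 0.281 (0.235 to 0.335) and UQCRC2 at 0.486 (0.451 to 0.523), and the median was −0.42. Mitochondrial ribosomal proteins held 1 lower of 26, MRPL24 at 0.439 (0.397 to 0.486). All 46 cytosolic ribosomal protein genes had an interval above 1, yet 3 passed 2-fold, RPL30 at 2.51 (2.37 to 2.66), RPS23 at 2.33 (2.14 to 2.54) and RPL3 at 2.01 (1.98 to 2.03); the median was 0.64, or 0.39 with library totals. Ribosomal protein genes have many processed pseudogenes, so their reads may be shared. Among translation factors 4 of 27 were higher, EIF1 at 3.14 (3.05 to 3.24), EIF4B at 3 (2.94 to 3.06), EEF2 at 2.8 (2.78 to 2.82) and EEF1A1 at 2.63 (2.61 to 2.64), and their median of 0.22 is −0.03 with library totals.

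Several housekeeping groups had medians near 0 whose sign depended on the scaling: aminoacyl-tRNA synthetases (0.01, −0.25 with library totals), nucleolar factors (0.07 and −0.19), proteasome subunits (0.11 and −0.14) and glycolysis and hypoxia genes (0.13 and −0.13). CARS, POLR1D and PSMD7 were the higher members of the first 3, at 2.34 (2.18 to 2.52), 2.36 (2.21 to 2.53) and 2.06 (1.92 to 2.22), and PSME2, an activator subunit of the immunoproteasome, was lower at 0.386 (0.346 to 0.43). VEGFA, the angiogenic factor, stood at 3.48 (3.21 to 3.78) and ANKRD37 at 3.13 (2.25 to 4.39), against the lactate carrier SLC16A3 at 0.427 (0.413 to 0.44) and TPI1 at 0.455 (0.442 to 0.468). Tubulins held 2 higher and 1 lower of 11, TUBA1A at 5.45 (4.95 to 6.01), TUBB3 at 2.32 (1.52 to 3.6) and TUBB4B at 0.461 (0.447 to 0.474); tubulin genes are close copies and may share reads.

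Of 18 SR splicing factors and CLK kinases, 3 were higher and 5 lower, and 5 intervals were above 1 and 10 below it. The splicing factors TRA2B, TRA2A, SRSF1 and SRSF7 stood at 0.386 (0.364 to 0.41), 0.392 (0.352 to 0.435), 0.401 (0.384 to 0.42) and 0.419 (0.391 to 0.449), whereas CLK1, CLK3 and CLK4, kinases that phosphorylate SR proteins, stood at 5.72 (5.01 to 6.54), 3.28 (3.03 to 3.55) and 5.68 (4.5 to 7.24). The fifth lower gene was SRSF2, at 0.482 (0.445 to 0.522), and CLK2 stood at 1.13 (1 to 1.28). Non-coding and snoRNA host genes were higher in 9 of 14 and lower in none. RPPH1, counted among the 9, had 7.02 CPM with palbociclib, 0.305 with the siRNA and 1.19 untreated. It passed the expression limit only through the palbociclib library. MALAT1 had 13502 reads with palbociclib, 2211 with the siRNA and 1355 in untreated cells, a ratio of 7.41 (7.08 to 7.75), and was above untreated in both treated libraries. NEAT1, the scaffold of paraspeckles, was higher after the siRNA, with 601, 944 and 357 reads in the palbociclib, siRNA and untreated libraries, a ratio of 0.773 (0.696 to 0.857). Structural RNA entries were higher with palbociclib by very different factors. The U3 gene SNORD3A had 872, 16 and 13 reads, a ratio of 66.1 (40.5 to 116), RPPH1, the RNA of ribonuclease P, had 114, 6 and 25, and the 28S ribosomal entry RNA28S5 had 7759, 2549 and 2085, a ratio of 3.69 (3.53 to 3.86). How much of such RNA a library holds depends on the RNA selection, and its part in the structural RNA values was not tested.

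Among genes with a mean of at least 5 CPM, the 12 highest ratios, in order of the log2 ratio, belonged to SNORD3A, RP3-410C9.1, ARC, GADD45G, CTGF, RASD1, IL8, PMEPA1, KRTAP2-3, JUN, INSIG1 and ATF3, from 66.1 to 17.4. The mean includes the palbociclib library. SNORD3A, GADD45G, CTGF, RASD1, IL8, PMEPA1 and KRTAP2-3 were below 5 CPM with the siRNA and untreated, so they entered the ranking only through palbociclib. RP3-410C9.1, a non-coding entry, had 3910, 128 and 80 reads in the palbociclib, siRNA and untreated libraries. GADD45G had 246, 9 and 8 reads and RASD1, a Ras-like GTPase, 314, 15 and 13. The siRNA and untreated libraries overlapped in counting error for most of these, KRTAP2-3 and INSIG1 being below untreated after the siRNA and RP3-410C9.1 above it. The 12 lowest were DHRS3, METTL7B, CDKN2C, LZTS1, PSRC1, C1QL4, SPC24, ZNF488, CNTLN, SECTM1, HIBCH and NES, from 0.0653 to 0.139. DHRS3, a retinal reductase, had 82 reads with palbociclib, 1524 with the siRNA and 1440 untreated, and PSRC1, a spindle protein, had 83, 1153 and 1092. Genes compared that had no read with palbociclib were EBF2, MSH5, ZNF503-AS1 and AP000251.2. With the siRNA they had 52, 51, 42 and 37 reads, which is 14.3, 14, 11.5 and 10.2 times the palbociclib floor of 3 reads after scaling. These factors leave out counting error in the siRNA reads. The upper bounds of the ratio were 0.0892 for EBF2, 0.091 for MSH5 and 0.111 for ZNF503-AS1. MSH5 is overlapped by a readthrough gene, so where its reads were counted is uncertain.

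Untreated lay between the treated libraries, with the counting intervals of both ratios to the shared untreated library off 1, for 1551 of the genes compared (12.2%), of which 502 were past the size rule. CDK6, CDKN1A and INSIG1 are among these, and so is SCD, with 33480 reads with palbociclib, 8954 with the siRNA and 12443 in untreated cells. The named 10 are those past the size rule, with a mean of at least 5 CPM, that ranked first by the smaller of their log2 distances to untreated. They were HIST1H2BD, SMAD7, ZNF649, KRT6A, ZNF804A and ZBED6, higher with palbociclib, and LPIN3, RP11-22B23.1, SLC44A2 and DDX12P, lower with it. HIST1H2BD, ZNF649 and ZNF804A were below 5 CPM with the siRNA and untreated, and RP11-22B23.1 and DDX12P with palbociclib and untreated. These genes, and also ZBED6 and LPIN3, entered the ranking only through the library in which they were highest. SMAD7, the inhibitory SMAD, had 311 reads with palbociclib, 72 with the siRNA and 149 in untreated cells, a ratio of 5.24 (4.04 to 6.87). SLC44A2, a choline transporter-like protein, had the most reads of the 10, 552, 2640 and 1701, a ratio of 0.254 (0.231 to 0.278). ZBED6, a repressor of IGF2, stood at 19.7, 3.1 and 5.05 CPM in the palbociclib, siRNA and untreated libraries, and HIST1H2BD at 10.2, 1.83 and 3.62 CPM. DDX12P is a pseudogene with near-identical relatives, so its 44, 241 and 93 reads are uncertain.

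**Figure D5:**
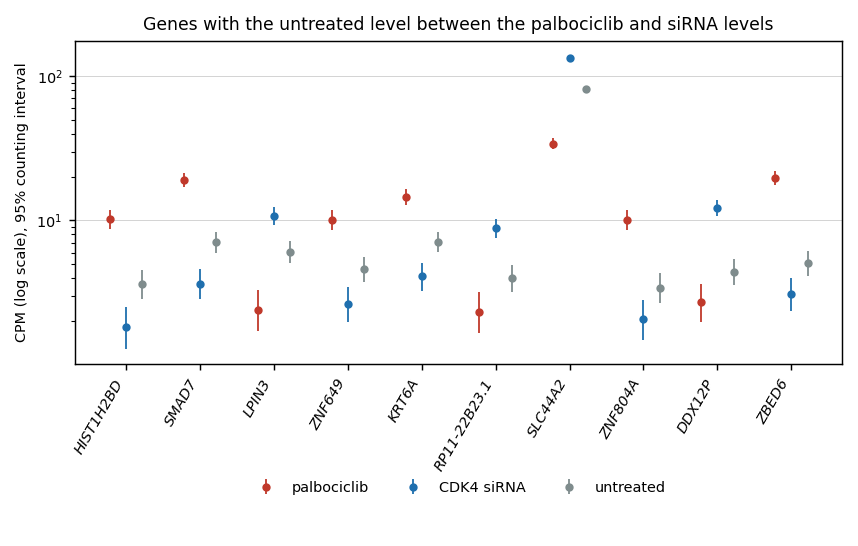
CPM (log scale) with exact 95% Poisson counting intervals in the palbociclib, CDK4 siRNA and untreated libraries, left to right within each gene, for the 10 genes ranked first among those with untreated between the treated libraries. Each gene's untreated point therefore lies between its red and blue points by choice, and SLC44A2 has the narrowest intervals, with 552, 2640 and 1701 reads. Several of the 10 reached the mean of 5 CPM only through the library in which they are highest.

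Some genes were above untreated in both treated libraries. These and the siRNA-high genes after them were picked after their values were seen, as were members of lists named beyond the rule for named genes. AMH had 1479, 504 and 249 reads in the palbociclib, siRNA and untreated libraries, a ratio of 3.56 (3.22 to 3.95), and FSTL3, an activin-binding protein, had 1072, 926 and 422, a ratio of 1.4 (1.29 to 1.54). For SLC22A18, MAPK15 and EDEM1 the treated libraries could not be told apart by counting error, with ratios of 1.01 (0.855 to 1.2), 0.878 (0.674 to 1.14) and 1.2 (0.933 to 1.53). Their reads were 132 with palbociclib, 134 with the siRNA and 66 untreated for EDEM1, which clears misfolded glycoproteins. Highest after the siRNA, among others, was KLF2, with 2022 reads with palbociclib, 2775 with the siRNA and 1610 in untreated cells. MEGF6 had 175, 560 and 286 reads, RNF207 21, 140 and 55, and GABBR1, a GABA receptor subunit, 37, 141 and 60 in the palbociclib, siRNA and untreated libraries. A GC value was at hand for 11507 of the genes compared (90.6%). Over these, the Spearman correlation of the log2 ratio with the GC content of the gene was −0.028 for palbociclib over siRNA, and 0.332 for the siRNA over untreated. It is a description across genes whose points share libraries.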

How the data were processed

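Total RNA of HCT116 cells was sequenced on an Illumina HiSeq, per the labels' protocols, with 1 library per group. The deposited counts are the authors' whole-number reads per gene; the deposited FPKM values are the same counts rescaled by length and library total (checked on 16938 genes). The submitters' processing notes name the hg19 build, DESeq and HTSeq 0.6.1. Aligner, annotation, RNA selection and strand setting are not stated there or in the labels, so antisense or overlapping genes may share reads. The files hold symbols and no coordinates; 29 entries with a date for a symbol stayed in the totals, unnamed, and a repeated symbol was taken from its entry with the most reads.

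Counts were scaled with TMM factors over the 3 libraries (0.901 palbociclib, 1.07 CDK4 siRNA, 1.03 untreated; edgeR 4.0.16, R 4.3.3). Log2 ratios used a prior count of 2; printed ratios use none and carry an exact 95% Clopper-Pearson interval, and CPM an exact Poisson interval. Reads lack molecular identifiers and can be copies of one molecule, so intervals and the floor of 3 counts (0.185, 0.152 and 0.143 CPM with palbociclib, with the siRNA and untreated) cover counting error only. No spread between cultures could be estimated. The size rule was tested on simulated Poisson counts with known changes and known library sizes. Such counts cannot test the scaling or the spread between cultures. Promoter windows are RefSeq's (GRCh38.p14); 9645 of 12670 compared symbols matched one.

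Named genes were 23 fixed ones, the 12 highest and 12 lowest ratios at a mean of at least 5 CPM, for each of 47 gene lists the 4 members furthest along the list's median and 1 contrary member, and 10 genes with untreated between the treated libraries. The comparison, its lists and these rules were chosen with earlier results of these data known. Alternatives changed scaling (DESeq2 1.42.0 size factors, library totals), filter, prior count, fold, unit, length and GC; the GC alternative was added after seeing the data. Some members of the lists are counted but not reported here by name.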

Additional observations from a re-analysis of the deposited data

How the results depend on the processing

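The depth of 18020870 palbociclib and 18349355 siRNA reads leaves weakly expressed genes with wide intervals, and with 1 library per group no setting stands in for a replicate. The log2 ratio of CDK4, 0.71 as reported, was 0.45 with library totals, 0.45 and 0.44 with the deposited FPKM values at pseudocounts of 0.1 and 1, and 0.84 with the GC trend subtracted, an alternative chosen after seeing the data. The 1111 higher genes became 655 with library totals, 645 and 425 with FPKM at those pseudocounts, 1721 with no filter on low counts, 2471 at 1.5-fold and 196 at 4-fold. The 1753 lower genes became 2646 with library totals, 1167 at a mean of at least 5 CPM, 3269 at 1.5-fold and 254 at 4-fold. DESeq2 size factors gave 1223 higher and 1576 lower. The changes with fold and filter follow from their construction, and FPKM values, like library totals, carry no TMM factor. What else moved the FPKM counts, and what moved the CDK4 value with the GC trend, was not tested. No value reversed its sign among named genes with a call: 2896 named-gene values moved by less than their counting interval and 673 by more, and for list medians, set against the median bounds of their members, the counts were 528 and 129. No paired analysis was possible because each group has 1 library.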
